A study of Mus musculus with 12 samples.

Results

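Caspases are proteases that carry out apoptosis, and a set of inhibitor proteins holds them in check. The members described here were 8 mouse genes chosen by symbol: the caspase genes Casp2, Casp6, Casp8 and Casp9, the inhibitor of apoptosis genes Xiap, Birc2 and Birc6, and Cflar. Of these, 7 had a row among the 12584 genes of the deposited expression table, and Casp6 was not analysed here. All 7 passed the filter on low values (at least 1 FPKM, fragments per kilobase and mega-read, in at least 3 libraries) and were tested with 10101 genes in all.

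The cells were CT26, a mouse colon carcinoma line kept in culture, exposed for 24 h to 1 of 4 treatments, with 3 libraries each. The treatments were NP-D@MP (libraries N10 to N12), NP-D@M (N7 to N9), NP@M (N4 to N6) and PBS, phosphate-buffered saline (N1 to N3). The labels leave the parts of these names unexplained; the title of the series speaks of a nanodrug with an engineered cancer cell membrane that acts on CDKs, the cyclin-dependent kinases. NP-D@MP and NP-D@M carry a D in their name, so NP-D@M against NP@M compares names that differ by D, and NP-D@MP against NP-D@M names that differ by P. Whether the 3 libraries of a treatment were grown as separate cultures is stated nowhere in the labels, and the p-values therefore cover the spread among these libraries, which may be technical.

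Apoptosis starts along separate routes. At the cell surface, death receptors recruit caspase-8, whose activation is limited by c-FLIP, the protein of Cflar. In the mitochondrial route, cytochrome c joins Apaf1 in the apoptosome, which activates caspase-9, and both routes converge on the executioner caspases. XIAP binds and inhibits caspases directly, whereas cIAP1 (Birc2) is a ubiquitin ligase of the TNF receptor complex.

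The libraries with D stood apart as a whole. Each held 12.8 to 14.9 M reads (mega-reads) in the table with D, and 13.9 to 15.7 M reads without D. The library size behind the authors' FPKM, recovered from the values, was 7.13 to 8.40 M reads with D and 28.2 to 31.1 M reads without D. The sources used here do not say how it was obtained. The FPKM level of any gene with D therefore depends on that scaling, and the scaling and D cannot be told apart. Mitochondrial genes held 7.41% to 14.4% of the reads with D and 3.30% to 4.20% without D. Libraries N7 and N8 held 10385 and 10410 genes above 0, while the other libraries with D held 11373 to 11546. Leaving out N9, the library of NP-D@M that lay apart from N7 and N8, turned the genes called in NP-D@MP against NP-D@M from 4 higher and 1 lower into 969 higher and 290 lower.

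The protocol text mentions another tissue, the retina, and none of 6 retina markers had a row. Of 8 colon epithelium markers, Krt18 and Krt20 had a row while Epcam, Cdh1 and Vil1, among others, had none. Their summed FPKM was 80.0 to 91.1 in NP-D@MP, 73.0 to 87.7 in NP-D@M, 15.1 to 16.4 in NP@M and 15.2 to 18.7 in PBS. The sum followed Krt20, at 78.0 FPKM in NP-D@M and 8.67 FPKM in NP@M, and 80.4 FPKM in NP-D@MP and 9.27 FPKM in PBS. Krt18 was at 4.46 FPKM in NP-D@M and 6.89 FPKM in NP@M, and at 4.19 FPKM in NP-D@MP and 8.16 FPKM in PBS, where it was called lower (adjusted p 0.0339, limma). Of 6 stromal markers, 5 had a row and summed to 12.8 to 15.2 FPKM in NP-D@MP, 10.6 to 13.0 in NP-D@M, 70.2 to 72.6 in NP@M and 71.5 to 86.1 in PBS. Of 6 immune markers, 3 had a row and summed to 13.8 to 21.3 FPKM in NP-D@MP, 9.31 to 18.3 in NP-D@M, 2.62 to 3.25 in NP@M and 2.57 to 2.85 in PBS. The single endothelial marker with a row reached at most 0.191 FPKM. The colon and immune sums were thus higher with D and the stromal sum lower. Within the stromal list Dcn, which did not pass the filter, went the other way, at 0.355 FPKM in NP-D@M and 0.0544 FPKM in NP@M. With each library scaled by its reads in the table, 0 of 2 tested immune markers were called in NP-D@M against NP@M. In NP-D@MP against PBS, 1 was then called higher, beside 1711 of all 10500 genes tested. The part of these markers in the results was not tested.

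With D, 6 of the 7 members were lower and Casp9 was the exception. Against NP@M, NP-D@M had lower levels of Casp2, Casp8, Xiap, Birc2, Birc6 and Cflar, and against PBS, NP-D@MP had lower levels of the same 6 genes. The members' median log2 change, on the scale of log2(FPKM + 1), was -0.77 in NP-D@M against NP@M, where the median of all tested genes was -0.19. It was -0.72 in NP-D@MP against PBS, where the median of all genes was -0.16. Calls were made where limma gave an adjusted p (Benjamini-Hochberg, over all tested genes) under 0.05. By that rule 6 of 7 members were called lower and 0 higher in both comparisons. Of all tested genes, 47.7% were called lower and 41.8% higher in NP-D@M against NP@M, and 47.3% were called lower and 43.2% higher in NP-D@MP against PBS. The groups of these 6 members did not overlap in either comparison, beside 46.6% of all tested genes that were lower without overlap in NP-D@M against NP@M and 48.3% in NP-D@MP against PBS. Most genes were called, so a call by itself sets no member apart. In bulk RNA, fewer cells of a type and less RNA per cell cannot be told apart.

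**Figure D1:**
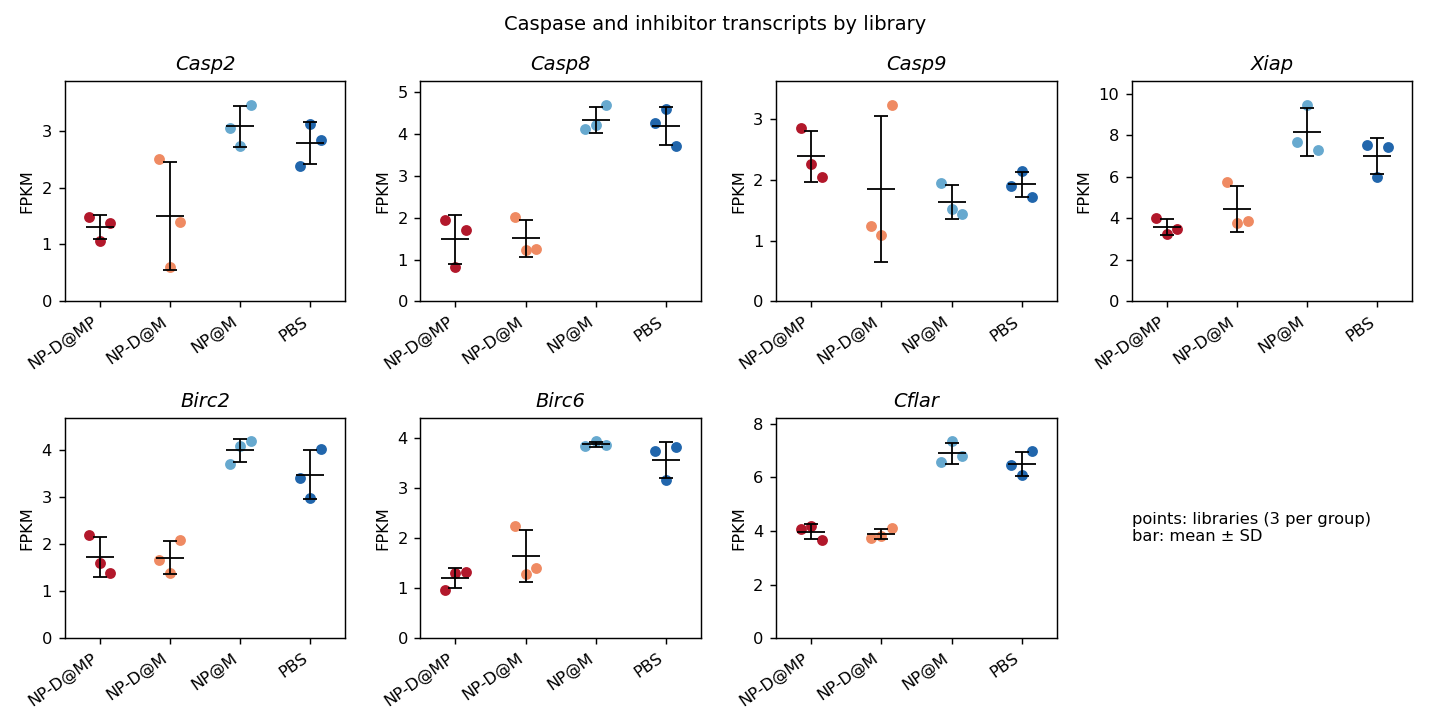
FPKM of the 7 members in each library, with treatments NP-D@MP, NP-D@M, NP@M and PBS on the horizontal axis; points are libraries and bars the mean ± SD of 3. The points with D lie below all points without D in Casp8, Xiap, Birc2, Birc6 and Cflar, while in Casp9 the groups overlap.

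Casp8 encodes the initiator caspase of the death receptors. It lies at chr1:58795374-58847503 on the plus strand (GRCm38). Its level was 1.94, 0.820 and 1.70 FPKM in the 3 libraries of NP-D@MP and 2.02, 1.24 and 1.26 FPKM in those of NP-D@M. It was 4.11, 4.21 and 4.71 FPKM in NP@M and 4.28, 4.60 and 3.72 FPKM in PBS. Every library with D was below every library without it. Behind these values stood 18 to 49 reads per library with D and 303 to 423 without D, so the values with D rest on the fewest reads of the set. Casp8 averaged 1.51 ± 0.443 FPKM in NP-D@M and 4.34 ± 0.318 FPKM in NP@M (SD, n = 3 each), 2.88-fold lower in NP-D@M, with a log2 change of -1.10 (SE 0.176, adjusted p 9.18e-05, limma). In NP-D@MP it averaged 1.49 ± 0.589 FPKM, against 4.20 ± 0.446 FPKM in PBS, 2.83-fold lower (log2 change -1.09, adjusted p 0.000103, limma).

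Casp9 encodes the initiator caspase of the apoptosome, at chr4:141793612-141815976 on the plus strand. Its level was 2.86, 2.26 and 2.05 FPKM in NP-D@MP, 1.24, 1.09 and 3.23 FPKM in NP-D@M, 1.94, 1.53 and 1.43 FPKM in NP@M and 1.90, 2.14 and 1.72 FPKM in PBS. The highest of all 12 values was that of N9, and the lowest that of N8, both from NP-D@M. Reads per library were 41 to 138 with D and 231 to 341 without D. The log2 change was 0.04 in NP-D@M against NP@M (95% interval -0.45 to 0.53, adjusted p 0.855, limma) and 0.21 in NP-D@MP against PBS (interval -0.28 to 0.70, adjusted p 0.380). These intervals leave room for changes in either direction. Without N9, the change in NP-D@M against NP@M was -0.28 (adjusted p 0.0586, limma). The sign and the call of Casp9 turned with the choice of scaling. With each library scaled by its reads in the table, which moved the median of all genes to -1.39 and -1.38 in these comparisons, Casp9 had log2 changes of -1.09 and -1.07, both called by limma (adjusted p 9.58e-05 and 0.000116), and all 7 members were called lower, beside 7694 genes lower and 1708 higher of 10500 tested in NP-D@M against NP@M and 7716 lower and 1711 higher in NP-D@MP against PBS. With quantile normalization Casp9 was called higher instead, at 0.60 (adjusted p 0.0127) in NP-D@M against NP@M and 0.73 (adjusted p 0.00418) in NP-D@MP against PBS.

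Casp2 encodes the caspase activated in the PIDDosome, a complex of Pidd1 and Cradd, and lies at chr6:42264985-42282508 on the plus strand. It stood at 1.48, 1.07 and 1.37 FPKM in NP-D@MP, 2.50, 0.606 and 1.40 FPKM in NP-D@M, 3.04, 2.73 and 3.46 FPKM in NP@M and 2.39, 3.12 and 2.83 FPKM in PBS. N7 had the highest value with D and lay within the range of PBS, though below all libraries of NP@M. Casp2 was 2.05-fold lower in NP-D@M than in NP@M (log2 change -0.77, SE 0.222, adjusted p 0.00625, limma). It averaged 1.30 ± 0.214 FPKM in NP-D@MP and 2.78 ± 0.370 FPKM in PBS (log2 change -0.71, adjusted p 0.00968, limma). With quantile normalization neither passed the test, at -0.23 (adjusted p 0.347) and -0.16 (adjusted p 0.526).

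Among the inhibitors, Xiap, whose protein blocks caspase-9 and the executioner caspases, lies at chrX:42059679-42109656 on the plus strand. Xiap was at 4.01, 3.24 and 3.49 FPKM in NP-D@MP, 5.72, 3.76 and 3.86 FPKM in NP-D@M, 7.67, 9.47 and 7.30 FPKM in NP@M and 7.51, 5.99 and 7.45 FPKM in PBS. All libraries with D were below all without it, with N7 the nearest, at 5.72 FPKM against 5.99 FPKM in N2 of PBS. Xiap averaged 4.45 ± 1.11 FPKM in NP-D@M and 8.14 ± 1.16 FPKM in NP@M, 1.83-fold lower (log2 change -0.76, SE 0.151, adjusted p 0.000534, limma). In NP-D@MP it averaged 3.58 ± 0.391 FPKM, against 6.98 ± 0.861 FPKM in PBS, 1.95-fold lower (log2 change -0.80, adjusted p 0.000364, limma).

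Birc2, the gene of cIAP1, lies at chr9:7818227-7837064 on the minus strand, 11634 bases from its paralog Birc3. Its levels were 2.19, 1.58 and 1.38 FPKM in NP-D@MP, 1.66, 1.38 and 2.07 FPKM in NP-D@M, 3.70, 4.08 and 4.17 FPKM in NP@M and 3.41, 2.98 and 4.01 FPKM in PBS. The libraries with D did not overlap those without it. The log2 change was -0.89 in NP-D@M against NP@M (2.33-fold lower, SE 0.136, adjusted p 6.80e-05, limma) and -0.72 in NP-D@MP against PBS (2.02-fold lower, adjusted p 0.000356, limma). With quantile normalization the NP-D@MP change was -0.21 and missed the threshold (adjusted p 0.169). Birc3, an inhibitor that also acts at the TNF receptor, did not pass the filter and averaged 0.0889 FPKM in NP-D@MP, 0.233 in NP-D@M, 0.396 in NP@M and 0.371 in PBS.

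Birc6 encodes BRUCE, a very large protein with both an inhibitor domain and a ubiquitin-conjugating domain, at chr17:74528295-74703356 on the plus strand. It had 0.969, 1.31 and 1.32 FPKM in NP-D@MP, 2.24, 1.28 and 1.41 FPKM in NP-D@M, 3.83, 3.93 and 3.86 FPKM in NP@M and 3.73, 3.15 and 3.81 FPKM in PBS. N7 was the highest with D and still below every library without it. Birc6 averaged 1.64 ± 0.518 FPKM in NP-D@M and 3.87 ± 0.0506 FPKM in NP@M, 2.36-fold lower (log2 change -0.90, SE 0.132, adjusted p 4.61e-05, limma). In NP-D@MP it averaged 1.20 ± 0.198 FPKM, against 3.56 ± 0.359 FPKM in PBS, and with 2.97-fold it had the highest fold between these groups among the 7 members (log2 change -1.05, adjusted p 1.21e-05, limma).

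Cflar encodes c-FLIP, a relative of caspase-8 that lacks protease activity and competes for its place at the receptor. The gene lies at chr1:58711508-58758884 on the plus strand and ends 36489 bases before Casp8, with 1 predicted gene between them. Its levels were 4.06, 4.19 and 3.65 FPKM in NP-D@MP, 3.74, 3.81 and 4.10 FPKM in NP-D@M, 6.56, 7.35 and 6.79 FPKM in NP@M and 6.46, 6.10 and 6.99 FPKM in PBS. The libraries within each treatment lay close together and those with D were all lower. Cflar averaged 3.88 ± 0.188 FPKM in NP-D@M and 6.90 ± 0.406 FPKM in NP@M, 1.78-fold lower (log2 change -0.69, SE 0.0867, adjusted p 1.21e-05, limma). In NP-D@MP it averaged 3.97 ± 0.283 FPKM and in PBS 6.52 ± 0.448 FPKM, 1.64-fold lower in NP-D@MP (log2 change -0.60, adjusted p 4.34e-05, limma).

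**Figure D2:**
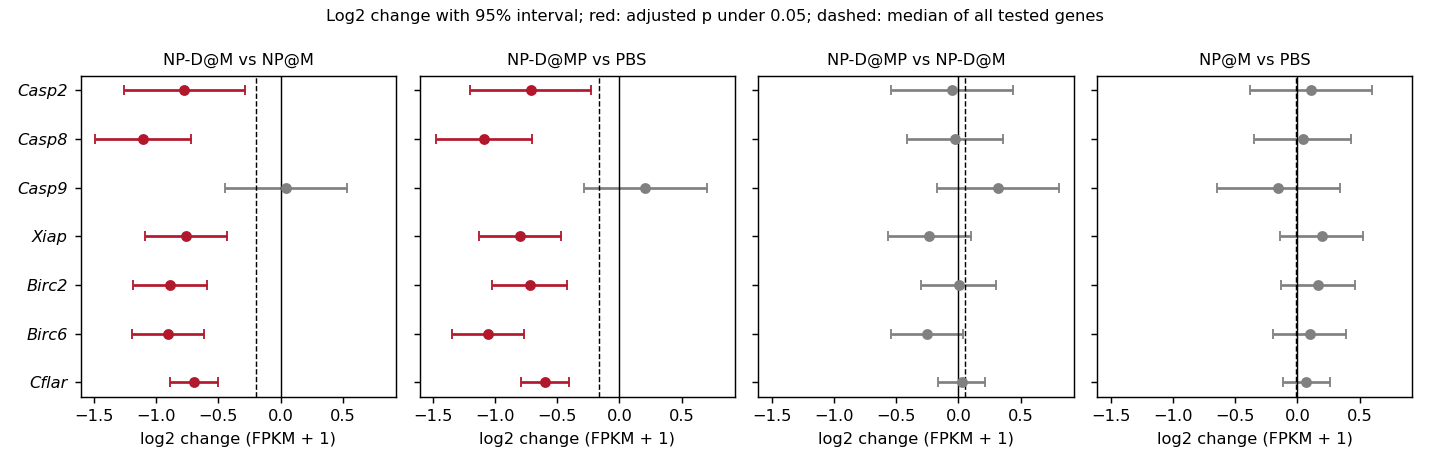
Log2 change of each member in 4 comparisons, on the scale of log2(FPKM + 1), with 95% intervals from limma; red marks an adjusted p under 0.05 and the dashed line the median of all tested genes. In both comparisons with D against without, 6 intervals lie below 0 and that of Casp9 spans it, and in the other 2 comparisons all 7 intervals span 0.

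The order of levels, which FPKM gives per length, also differed with D. In NP-D@MP the means ran from Cflar at 3.97 FPKM through Xiap (3.58), Casp9 (2.39), Birc2 (1.72), Casp8 (1.49) and Casp2 (1.30) to Birc6 at 1.20. In PBS they ran from Xiap at 6.98 FPKM through Cflar (6.52), Casp8 (4.20), Birc6 (3.56), Birc2 (3.46) and Casp2 (2.78) to Casp9 at 1.92. Casp9 was thus the lowest member in PBS and the third in NP-D@MP. For Birc6 the length in the deposited values was 28830 bases, against 25772 bases of merged annotated exons. A longer length gives a lower FPKM, so the place of Birc6 is uncertain. Neighbours in the order mostly overlapped across libraries: in NP-D@MP the 1 gap lay between Xiap and Casp9, and in PBS gaps lay between Cflar and Casp8 and between Casp2 and Casp9. Against all 12584 genes in the table, the mean of Casp9 exceeded 52.6% of genes in NP-D@MP and 48.3% in NP-D@M, against 34.1% in NP@M and 37.3% in PBS.

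No difference between NP-D@MP and NP-D@M passed the test in any member. None of the 7 was called by limma and none had an unadjusted p under 0.05, where 0.0495% of all tested genes were called and 17.0% had an unadjusted p under 0.05. The 95% intervals of the log2 change ran from -0.57 to 0.10 for Xiap, from -0.54 to 0.04 for Birc6 and from -0.17 to 0.81 for Casp9. For Cflar the interval was the narrowest, from -0.17 to 0.22. Those of Casp8 (-0.41 to 0.36), Birc2 (-0.30 to 0.30) and Casp2 (-0.54 to 0.44) leave room for differences of moderate size, so likeness of these treatments is not shown. Without N9, Casp9 was called higher in NP-D@MP, with a log2 change of 0.64 (adjusted p 0.0133, limma); with N9 it was 0.32 (adjusted p 0.480).

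NP@M and PBS gave no called difference either. No member was called by limma, none had an unadjusted p under 0.05, and 0.00990% of all tested genes were called and 10.8% had an unadjusted p under 0.05. The largest log2 change was that of Xiap, at 0.19 (95% interval -0.14 to 0.53), followed by Birc2 at 0.16 (interval -0.13 to 0.46). Casp9 stood at -0.15 (interval -0.64 to 0.34). Birc6 was the 1 member whose libraries did not overlap, all higher in NP@M, beside 28.4% of all tested genes whose groups did not overlap.

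Levels with D moved with gene length. In NP-D@M against NP@M the median log2 change of tested genes, split by length into 10 classes of like size, was 1.70 in the shortest class, 0.08 in the fourth, -0.46 in the sixth and -0.64 in the longest. The members are mostly long genes, with Casp8 in class 4, Birc2 in 6, Casp9 in 7, Casp2 in 8 and Xiap, Birc6 and Cflar in 10. In 1 setting the length trend over all genes was subtracted from each log2 change, with the standard errors kept. A call lower then means lower than the trend at that gene length, and a gene not called may still be lower with D. With the trend removed, 2 members were called lower in NP-D@M against NP@M. They were Casp8 at -1.19 (adjusted p 5.76e-05) and Birc2 at -0.66 (adjusted p 0.000776, limma). Of all 10101 tested genes, 4395 were then called lower and 3859 higher. Under the same setting Casp2 had -0.40 (adjusted p 0.118), Xiap -0.31 (0.0741), Birc6 -0.24 (0.116) and Cflar -0.19 (0.0658). In NP-D@MP against PBS, 4 members were called without the trend: Casp8 at -1.21, Birc2 at -0.53, Birc6 at -0.39 and Xiap at -0.38, beside 4429 of all tested genes lower and 3891 higher. Casp2 (-0.37, adjusted p 0.143) and Cflar (-0.11, adjusted p 0.264) were not. Casp9 then stood at 0.33 (adjusted p 0.193) and 0.46 (adjusted p 0.0761) in these comparisons.

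**Figure D3:**
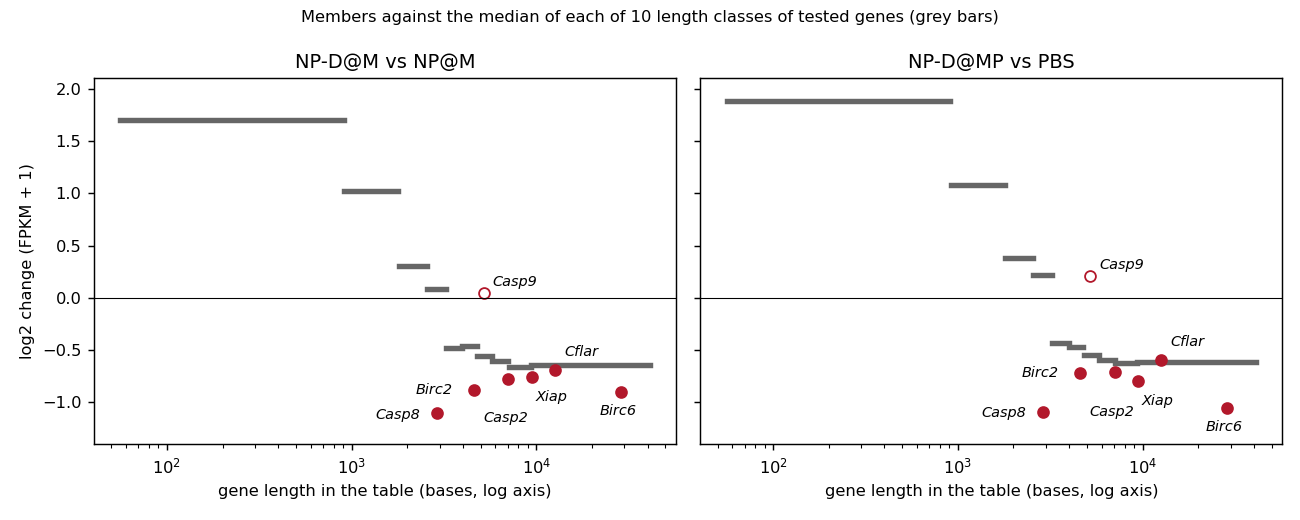
Log2 change of the 7 members (circles, filled where called) against gene length on a log axis, with grey bars for the median of each of 10 length classes of tested genes; left NP-D@M against NP@M, right NP-D@MP against PBS. Casp8 lies below the bar of its class and Casp9 above its own, while Cflar lies near the bar of the longest class.

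A ratio of 2 genes within a library does not change when each library is scaled by 1 factor, and 4 ratios were compared between the 6 libraries with D and the 6 without by an exact permutation test (two-sided), with Benjamini-Hochberg adjustment over the 4. These pools join NP-D@MP with NP-D@M and NP@M with PBS, which are different treatments. The 4 ratios were chosen with earlier results of these data known, so their p-values describe the ratios and are no independent support. The Casp9 to Casp8 ratio was 1.47, 2.75 and 1.21 in NP-D@MP, 0.613, 0.878 and 2.56 in NP-D@M, 0.473, 0.362 and 0.304 in NP@M and 0.445, 0.465 and 0.463 in PBS. Every library with D lay above every library without it. The geometric mean was 1.37 with D and 0.413 without D, 3.32-fold higher with D (log2 difference 1.73, exact permutation p 0.00216, the smallest that 6 against 6 allow; adjusted p 0.00866). The medians of the length classes of Casp9 and Casp8 were -0.55 and 0.08 in NP-D@M against NP@M. The part of gene length in this ratio was not tested.

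The ratio of Cflar to Casp8 sets the competitor of caspase-8 beside caspase-8 itself. It was 2.09, 5.11 and 2.15 in NP-D@MP, 1.85, 3.07 and 3.24 in NP-D@M, 1.59, 1.74 and 1.44 in NP@M and 1.51, 1.33 and 1.88 in PBS. The lowest library with D, N7 at 1.85, lay just under the highest without it, N3 at 1.88. The geometric mean was 2.74 with D and 1.57 without D, 1.74-fold higher with D (exact permutation p 0.00433, adjusted p 0.00866). Cflar transcripts were thus higher relative to Casp8 transcripts with D, under any scaling by 1 factor per library. Quantile normalization is not such a scaling, and under it the log2 changes in NP-D@M against NP@M were -0.61 for Cflar and -0.62 for Casp8.

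The ratio of Xiap to Casp9 was 1.40, 1.44 and 1.70 in NP-D@MP, 4.62, 3.45 and 1.19 in NP-D@M, 3.94, 6.20 and 5.10 in NP@M and 3.94, 2.80 and 4.33 in PBS. It was low in NP-D@MP and in N9, while N7 and N8 lay within the range of the libraries without D. The geometric mean was 2.01 with D and 4.26 without D (log2 difference -1.08, exact permutation p 0.0238, adjusted p 0.0317). The Birc2 to Casp8 ratio had geometric means of 1.18 with D and 0.868 without D and did not pass the test (exact permutation p 0.0996, adjusted p 0.0996). Within NP-D@M against NP@M alone, an exact permutation test of 3 against 3 cannot go below p = 0.1, and the log2 differences were 1.58 for Casp9 to Casp8, 0.73 for Cflar to Casp8 and -0.90 for Xiap to Casp9.

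**Figure D4:**
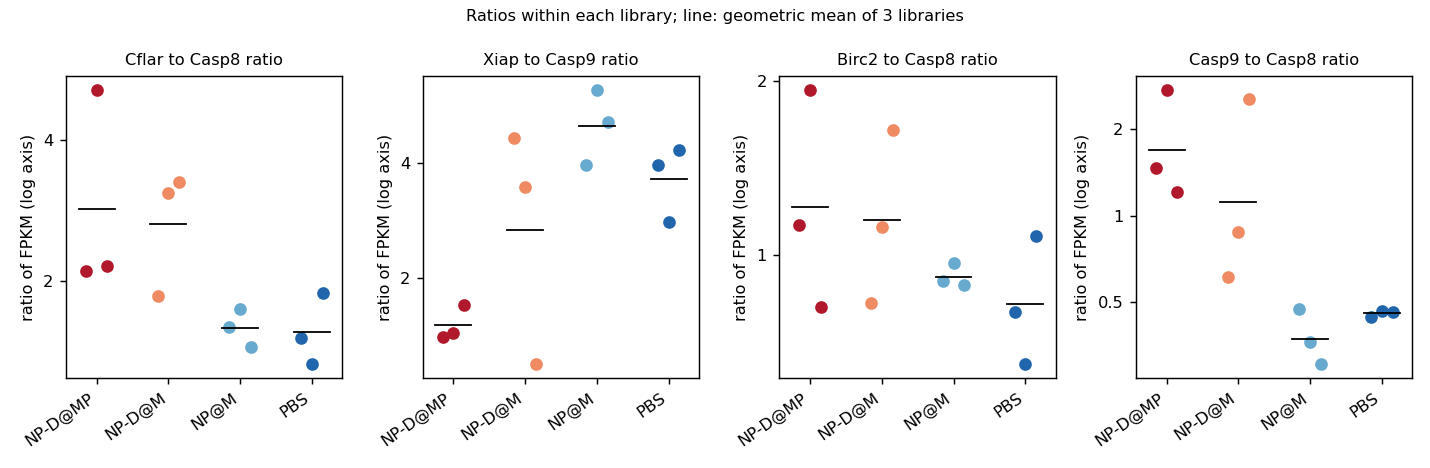
Ratios of FPKM within each library on a log axis, by treatment; points are libraries and lines the geometric mean of 3. In the Casp9 to Casp8 panel all points with D, 0.613 and above, lie over all points without D, which reach 0.473.

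Because Casp9 was the member not called lower while Casp8, Birc2 and Cflar were, the 150 bases directly upstream of the first RefSeq start of these 4 genes are shown for comparison (GRCm38.p6, 5′ to 3′ on the gene's strand). Capitals mark matches, on either strand, to the letters of the GC box (GGGCGG), the TATA box (TATAAA), the CCAAT box or the cyclic AMP response element (TGACGTCA). An NF-kB site was searched as well. The coordinates are chr4:141793462-141793611 for Casp9, chr1:58802352-58802501 for Casp8, chr9:7837058-7837207 for Birc2 and chr1:58711341-58711490 for Cflar.
Casp9: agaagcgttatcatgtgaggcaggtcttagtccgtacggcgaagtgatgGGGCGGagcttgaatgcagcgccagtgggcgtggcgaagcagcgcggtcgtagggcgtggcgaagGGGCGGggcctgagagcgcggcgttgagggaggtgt
Casp8: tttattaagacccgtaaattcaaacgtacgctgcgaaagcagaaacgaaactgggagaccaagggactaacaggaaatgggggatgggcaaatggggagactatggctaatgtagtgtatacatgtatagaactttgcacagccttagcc
Birc2: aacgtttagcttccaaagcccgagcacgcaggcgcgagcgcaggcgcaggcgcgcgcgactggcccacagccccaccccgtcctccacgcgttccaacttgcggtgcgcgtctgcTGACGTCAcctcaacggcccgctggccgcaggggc
Cflar: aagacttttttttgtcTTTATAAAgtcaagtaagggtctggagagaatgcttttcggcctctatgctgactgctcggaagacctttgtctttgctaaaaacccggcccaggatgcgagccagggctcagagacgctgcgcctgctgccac
All 7 members matched the RefSeq promoter table. In windows of 250 bases, that of Casp9 had 66% GC, 25 CG pairs and 4 GC boxes, a motif that 32.7% of 32851 promoters held. The Casp8 window had 39.6% GC, 5 CG pairs, no GC box and 1 CCAAT match, which 33.9% of promoters held, outside the stretch shown. It lies inside the span annotated for Casp8. Birc2 had 68.4% GC, 31 CG pairs and a TGACGTCA match, which 1.55% of promoters held. Cflar had 42.8% GC, 7 CG pairs and 2 TATAAA matches that overlap on opposite strands, a motif in 12.4% of promoters. None of the members' windows held the letters searched for the NF-kB site, found in 0.14% of promoters. The median promoter had 52.4% GC and 6 CG pairs. The windows of Casp9 and Birc2 thus both held more CG pairs than the median promoter. Any relation of these windows to the levels was not tested.

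Partners of the pathway were described from lists of genes. Of all tested genes, 47.7% were called lower and 41.8% higher in NP-D@M against NP@M. In NP-D@MP against PBS these shares were 47.3% and 43.2%. With scaling by table reads, 7694 of 10500 genes were lower and 1708 higher in NP-D@M against NP@M. The numbers were 7716 and 1711 in NP-D@MP against PBS. Most genes were called, so the counts below set no list apart by themselves. Casp1, the inflammatory caspase, averaged 6.84 FPKM in NP-D@M and 6.29 FPKM in NP@M and did not pass the test (adjusted p 0.508, limma). This depended on the setting. With scaling by table reads Casp1 was called lower in NP-D@M against NP@M and in NP-D@MP against PBS. It was also called lower in NP-D@M against NP@M with the length trend removed. Casp4 averaged 0.578 FPKM in NP-D@M and 1.45 FPKM in NP@M and was called lower (log2 change -0.62, adjusted p 0.0156, limma). Its libraries of NP-D@M held 13 to 22 reads. In NP-D@MP against PBS, Casp4 was not called (log2 change -0.42, adjusted p 0.0802, limma). Casp1 and Casp4 do not stand for the caspases outside the members.

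Of 2 other BIRC family genes tested, 1 was called in each direction in both comparisons. Naip2, a sensor of bacterial proteins, averaged 0.465 ± 0.142 FPKM in NP-D@M and 5.28 ± 0.314 FPKM in NP@M (log2 change -2.10, adjusted p 2.00e-09, limma). Birc5, which encodes survivin, a mitotic protein, averaged 44.9 ± 8.60 FPKM in NP-D@M and 19.2 ± 1.05 FPKM in NP@M (log2 change 1.17, adjusted p 2.82e-06, limma). Its direction turned with the scaling, to -0.60 with each library scaled by its table reads and to -0.13 with quantile normalization. Of 2 antagonists of the inhibitors, Htra2, a mitochondrial protease, was called higher at 1.03 but had -0.64 with scaling by table reads. Xaf1, which binds XIAP, was called lower at -0.40 but had 0.18 with quantile normalization.

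In the apoptosome and PIDDosome list, 1 of 4 tested genes was called higher and 2 lower in NP-D@M against NP@M, and 1 higher and 3 lower in NP-D@MP against PBS. Cycs, the gene of cytochrome c, averaged 234 ± 31.4 FPKM in NP-D@M and 13.6 ± 1.05 FPKM in NP@M (adjusted p 9.60e-11, limma). Apaf1, the scaffold of the apoptosome, averaged 0.336 ± 0.247 FPKM in NP-D@M and 3.07 ± 0.265 FPKM in NP@M (log2 change -1.62, adjusted p 5.49e-07, limma). The transcripts of the scaffold and of its activator thus changed in opposite directions, also with scaling by table reads, where they had log2 changes of -2.55 and 2.22.

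In the list of death receptors, adaptors, kinases and related genes, 2 of 8 tested genes were called higher and 6 lower in both comparisons. The 2 higher were Mlkl and Cyld, and the tested death receptors and adaptors were all called lower. With scaling by table reads, 0 were called higher and 8 lower of 9. Tnfrsf1a, the receptor TNFR1, averaged 0.656 ± 0.169 FPKM in NP-D@M and 22.7 ± 2.28 FPKM in NP@M (log2 change -3.84, adjusted p 7.39e-10, limma). Mlkl, the effector of necroptosis, averaged 44.5 ± 4.27 FPKM in NP-D@M and 14.2 ± 1.00 FPKM in NP@M (log2 change 1.58, adjusted p 3.69e-08, limma), but had -0.18 and was not called with scaling by table reads. In the linear ubiquitin ligase, which acts at the same receptor as cIAP1, 2 of 3 subunits were called higher and 1 lower in both comparisons, and 1 higher and 2 lower with scaling by table reads. Rbck1 (HOIL-1) averaged 123 ± 19.6 FPKM in NP-D@M and 14.4 ± 1.00 FPKM in NP@M, whereas Rnf31, the catalytic subunit HOIP, averaged 0.635 ± 0.428 FPKM in NP-D@M and 2.76 ± 0.504 FPKM in NP@M (adjusted p 1.17e-09 and 2.60e-05, limma).

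Downstream, 5 of 11 tested caspase substrates and execution genes were called higher and 3 lower in both comparisons. Parp1, a DNA repair enzyme cut by caspases, averaged 75.6 ± 9.36 FPKM in NP-D@M and 11.7 ± 0.991 FPKM in NP@M (log2 change 2.58, adjusted p 1.37e-09, limma). Bid, which caspase-8 cuts to link the routes, averaged 0.487 ± 0.409 FPKM in NP-D@M and 7.14 ± 0.410 FPKM in NP@M (log2 change -2.49, adjusted p 7.66e-08, limma). Few reads stood behind the lower levels in NP-D@M, 1 to 25 per library for Bid and 5 to 36 for Apaf1. For Tnfrsf1a they were 12 to 16, for Naip2 14 to 25 and for Rnf31 11 to 45, so the sizes of these falls are uncertain. With scaling by table reads, 1 was called higher and 10 lower of 12 tested in this list. No gene of these lists was called in NP-D@MP against NP-D@M or in NP@M against PBS.

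For each member the gene of most similar profile was taken as the one with the smallest root mean square distance over the 12 libraries, among 10099 genes and after centring log2(FPKM + 1). It was Leprotl1 for Cflar (distance 0.0535), Smurf2 for Birc6 (0.0708), Ebna1bp2 for Xiap (0.0930), Adam10 for Birc2 (0.0991), Zbtb17 for Casp9 (0.109), Poc5 for Casp8 (0.115) and Sugp1 for Casp2 (0.141). The median distance of other genes to a member was 0.606 to 0.705. All these profiles share the same 12 libraries and their scaling.

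Some reads may belong to other genes. Of the 50-base words of the annotated exons, 7.36% of Cflar also occurred in another gene, as did 4.37% of Casp8, 2.04% of Birc6, 1.49% of Birc2 and below 1% of Xiap and Casp9, and 0 of Casp2. Larger shares, 33.8% of Htra2, 26.2% of Cycs, 19.1% of Naip2 and 16.4% of Bid, make these values uncertain. On the opposite strand, Cela2a and Ctrc overlap Casp9 and the antisense gene Gm26749 overlaps Birc6. The sources used here give no strand setting for the counting, so reads of such pairs cannot be told apart, and none of the overlapping genes had a row in the table.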

How the data were processed

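RNA of CT26 cells was measured in 12 libraries, grouped by the treatment in the labels. The authors deposited 1 table of FPKM values for 12584 genes; per the submitters' processing notes, Bowtie 0.12.2 and mm8 were used, whereas GENCODE M21 for GRCm38 holds 12571 of the identifiers, and 12104 had identical coordinates there, so GRCm38 coordinates are given. The counter and the strand setting are not given in the sources used here. All value columns were mapped to samples (0 unmapped).

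FPKM times gene length was a whole multiple of 1 step per library for 100% of values (tolerance 1e-06), from which reads and the library size used by the authors were recovered. The test was limma 3.58.1 (R 4.3.3) on log2(FPKM + 1), which understates changes of low genes, with at least 1 FPKM in at least 3 libraries, all 12 libraries in 1 fit, and Benjamini-Hochberg adjustment over 10101 genes. Folds are ratios of mean FPKM. Ratios within libraries were tested by exact permutation (Python 3.11.15, numpy 2.4.6). The steps were tested on simulated data in which few genes changed and no trend on gene length was present. With D most genes were called and levels moved with length, so that simulation cannot vouch for these calls. The members, lists and ratios were chosen with earlier results of these data known. Beside the members, the genes named are, per list, the called gene with the largest rise and that with the largest fall in NP-D@M against NP@M. The gene most alike to each member is named as well. Casp1, Casp4, Birc3 and Cyld were added after their values were seen. One gene that this rule names is not reported here. The labels give no batch. Alternatives changed the scaling, filter, pseudocount, limma settings, threshold, libraries and gene length trend.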

Additional observations from a re-analysis of the deposited data

Results flagged for a closer look

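Single libraries stood apart from the 6 of their kind in 3 cases, by the gap to the nearest library relative to the range (Dixon's criterion at 95%), which chance meets in about 1 of 20 groups. Xiap was at 5.72 FPKM in N7 of NP-D@M, above the other 5 libraries with D. Birc6 was at 2.24 FPKM in N7, also above the other 5 with D. Among the libraries without D, Birc6 was at 3.15 FPKM in N2 of PBS, below the other 5. The calls of Xiap and Birc6 were made with each of these libraries left out in turn. These pools of 6 join NP-D@MP with NP-D@M, or NP@M with PBS, and are not treatments of the study.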

How the results depend on the processing

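In NP-D@M against NP@M and in NP-D@MP against PBS, 6 members were called lower in every fit that left out 1 library (range 6 to 6, with 0 called higher), and also with voom on recovered reads, trend and robust settings, the 6 libraries compared, a pseudocount of 0.1, no filter, a common median ratio and an adjusted p under 0.01. A mean of at least 5 FPKM left 2 members, both called lower in each comparison, beside 1381 of 4944 genes lower and 3193 higher in NP-D@M against NP@M, and 1339 lower and 3245 higher in NP-D@MP against PBS. A log2 change of at least 1 left 1 called lower in NP-D@M against NP@M and 2 in NP-D@MP against PBS, beside 2864 and 2796 of 10101 genes. Removal of the length trend, which sets each gene against that trend, left 2 called lower in NP-D@M against NP@M, beside 4395 of 10101 genes. It left 4 in NP-D@MP against PBS, beside 4429 of 10101 genes. Quantile normalization left 5 called lower in NP-D@M against NP@M and 4 in NP-D@MP against PBS, beside 4369 and 4405 of 10101 genes. Casp2 lost its call in both comparisons and Birc2 in NP-D@MP against PBS. The same setting added 1 member called higher, Casp9, in each, beside 3751 and 3800 genes. Casp9 turned to -1.09 and -1.07 with scaling by table reads. In NP-D@MP against NP-D@M, leaving out 1 library gave 0 to 1 members called higher, the 1 being Casp9 without N9. With only NP-D@M and NP@M the log2 ratio differences were 0.73 (Cflar to Casp8), -0.90 (Xiap to Casp9) and 1.58 (Casp9 to Casp8), in a design of 3 against 3 that cannot pass the threshold. Over single libraries left out, they ranged from 0.62 to 0.92, from -1.32 to -0.93 and from 1.53 to 1.97 for 6 with D against 6 without, and Birc2 to Casp8 from 0.30 to 0.55. Birc2 to Casp8 passed p under 0.05 in 2 of these, at 0.55 without N12 (exact permutation p 0.0390) and 0.54 without N7 (exact permutation p 0.0411). Beyond the length and scaling settings' own construction, the cause of these shifts was not tested. Among changes of single members, 629 kept their side of the threshold, though some uncalled values among them changed sign, 18 lost and 3 gained a call, and Casp9 with scaling by table reads reversed in 2. No paired analysis was possible because the libraries are numbered in a single run, so no number is shared between treatments. Among the members, low read numbers with D limit Casp8, Birc2, Casp2 and Casp9 most.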
